A study of Mus musculus with 6 samples.

Results

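The 47 genes described here encode the enzymes and factors that make and run the protein synthesis machinery of mitochondria, apart from the ribosomal proteins themselves. They were taken by name from the platform annotation: 16 aminoacyl-tRNA synthetases, 3 subunits of the glutamyl-tRNA amidotransferase, 14 enzymes of tRNA processing and modification, 5 enzymes of ribosomal RNA modification and 9 initiation, elongation, release and recycling factors. All 47 had 1 row each among the 23185 named genes on the arrays. Expression was measured on 6 Affymetrix arrays of total RNA from hearts of FVB mice, an inbred strain. The 3 wild type arrays came from littermate controls and the 3 knockout arrays from mice with a knockout of irisin, a hormone released from the membrane protein that the gene Fndc5 encodes. The line was made by injecting Cas9 mRNA and 5 guide RNAs into zygotes, so the knockout is not limited to 1 cell type, and how many founders it traces to is not given in the sources used here. Both groups ate a chow with 10% fat for 24 weeks. Age and sex are not given in the labels, and the material is called cardiomyocytes in some fields and myocardium in another. Nothing in the labels states that each array of a group is a separate animal, so p-values here describe the spread among these 6 arrays, part of which may be technical. The title of the series ties the comparison to insulin resistance, cardiac dysfunction and injury after ischaemia.

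Mitochondria of mammals carry a small genome that encodes a handful of membrane subunits of the respiratory chain, together with the ribosomal RNAs and all the tRNAs needed to translate them. Every protein that charges, trims or chemically modifies those tRNAs, and every translation factor, is encoded in the nucleus and imported. Heart muscle depends heavily on the respiratory chain, and inherited defects in many of these genes cause cardiomyopathy in infants.

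The check of the targeted gene set 1 knockout array apart. Fndc5 stood at 8.42, 8.40 and 7.83 log2 units on wild type replicates 1, 2 and 3, and at 7.68, 5.49 and 5.45 on knockout replicates 1, 2 and 3. The library labelled knockout replicate 1 therefore lay close to the wild type arrays for this gene, and counts and values without it are given below. Limma called the difference of -2.01 (SE 0.54) at an adjusted p of 0.0359. Without knockout replicate 1 the difference was -2.75 (adjusted p = 0.00217), and without any other 1 array the call was lost (0.0617 to 0.133), as it was with robust estimation (0.0635). Across genes, knockout replicate 1 correlated at 0.991 and 0.992 with the other knockout arrays and at 0.960 to 0.969 with the wild type arrays. The wild type arrays correlated with each other at 0.979 to 0.982. Some markers of other cell types moved with genotype. The mean of 10 fibroblast markers was 6.70 to 7.54 on the wild type arrays and 5.98 to 6.22 on the knockout arrays. Of the 10, 5 were lower: Col3a1 (-2.85), Col1a1 (-2.50), Col1a2 (-2.05), Postn (-1.69) and Pdgfra (-0.65). Fbln2 (-0.85), Ddr2 (-0.36), Lum (-0.33), Dcn (-0.01) and Tcf21 (0.10) did not pass. The mean of 8 smooth muscle and pericyte markers was 6.47 to 7.99 on the wild type arrays against 5.46 to 5.79 on the knockout arrays. The 5 lower were Cnn1, Tagln, Myl9, Myh11 and Acta2 (-3.04 to -2.16), and 1, Rgs5, was higher by 1.23 (adjusted p = 0.000837 in limma). Cspg4 (-0.67) and Pdgfrb (0.05) did not pass. For 8 endothelial markers the mean was 7.28 to 7.40 in wild type against 6.76 to 7.07 in knockout, with 2 lower. The mean of 12 cardiomyocyte markers was 10.79 to 10.85 on the wild type arrays and 10.76 to 10.82 on the knockout arrays, with 1 higher and 0 lower. Knockout replicate 1 stood at 5.98 for the fibroblast, 5.69 for the smooth muscle and pericyte and 6.76 for the endothelial markers, below every wild type array in each. Among the macrophage, lymphocyte, adipocyte, erythroid and skeletal muscle markers, 1 was lower (Mrc1) and 1 higher (Cd4). No marker is at 0 on this log2 scale, and the part of these shifts in the results below was not tested.

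Genes of the mitochondrial translation apparatus were more often higher in the knockout than genes in general. Of the 47 genes, 20 rose, 0 fell and 27 did not pass limma's test at an adjusted p of 0.05, whereas 10.4% of all 23185 genes rose and 6.18% fell. The median difference, knockout minus wild type, was 0.42 log2 units over the 47 genes, -0.05 over all genes and 0.15 over the brightest 3 of 10 parts of all genes by mean level. A positive difference was seen in 38 of the 47 genes, or 80.9%, beside 42.9% of all genes and 61.5% of those brightest genes, of which 26.9% rose. The 3 knockout arrays lay above all 3 wild type arrays for 29 of the genes and below them for 1, Alkbh1, where 17.2% and 17.0% of all genes did so. Among the 6956 genes of the brightest 3 parts, 2715 lay above and 1317 below in this way. RNA was taken from whole samples, so more cells of a type and more RNA per cell cannot be told apart.

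Among the genes that rose, the differences ran from 0.42 to 3.19 log2 units, with a median of 0.74 and standard errors of 0.11 to 0.30. Those at least 2-fold higher were 6 in number, Nsun3, Gatc, Iars2, Trmt5, Mrrf and Yars2, where 3.42% of all genes rose that far. Of the 6956 genes in the brightest 3 of 10 parts, 632 rose that far. Of the 27 genes that did not pass, 18 had a positive and 9 a negative difference, from -0.49 to 0.56. The mean over the 47 genes was 4.16, 4.20 and 4.04 on wild type replicates 1, 2 and 3, and 4.63, 4.72 and 4.56 on knockout replicates 1, 2 and 3. Knockout replicate 1, in which Fndc5 was little reduced, thus lay between the other 2 knockout arrays for this mean and above every wild type array.

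**Figure D1:**
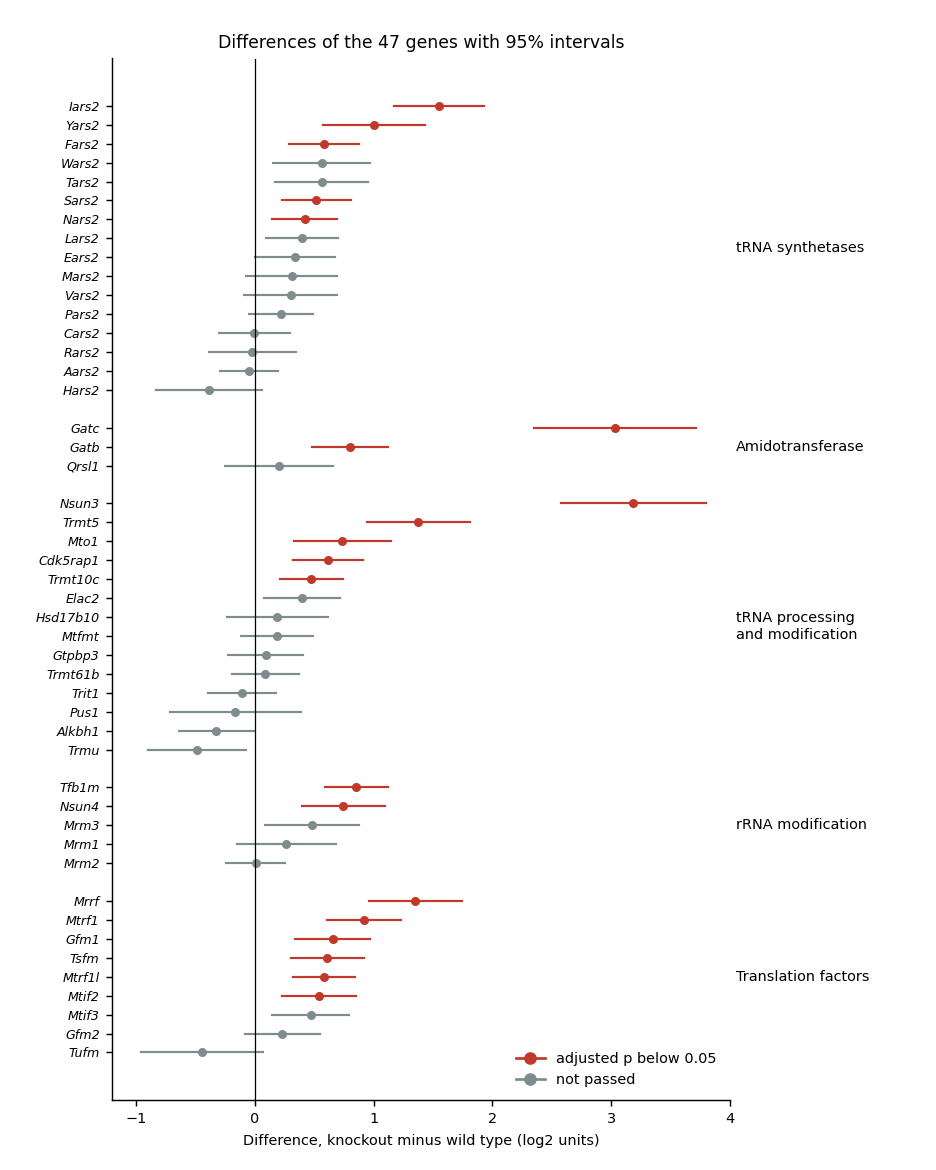
Difference of each of the 47 genes, knockout minus wild type in log2 units on the horizontal axis, grouped by role, with points for the estimate and lines for the 95% interval, red for genes that passed limma's test and grey for the rest. The red points run from 0.42 to 3.19 and all lie to the right of 0, and no gene passed as lower.

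Level on the array bears on these counts, because bright genes were called higher more often. With all named genes divided into 10 equal parts by their mean over the 6 arrays, 42 of the 47 genes lay in parts 7 to 10. In part 7, where 13.4% of all genes rose, 2 of 16 did. In part 8 the share of all genes was 20.7%, and 10 of 14 of these genes rose. In parts 9 and 10, with 25.5% and 34.5% of all genes called higher, 3 of 6 and 4 of 6 rose. The share of all genes that fell was 9.97%, 11.7%, 10.9% and 11.1% in parts 7, 8, 9 and 10. Over the same parts the median difference of all genes was 0.0046, 0.079, 0.14 and 0.27. The cause of this shift among bright genes was not tested. Because the mean takes in the knockout arrays, a rise itself lifts a gene's part: Nsun3 lies in part 8 with a wild type mean of 2.63 and a knockout mean of 5.81, and Gatc in part 10 with 5.23 and 8.26. Each of these shares is a description, and no test was made of the genes as a set.

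**Figure D2:**
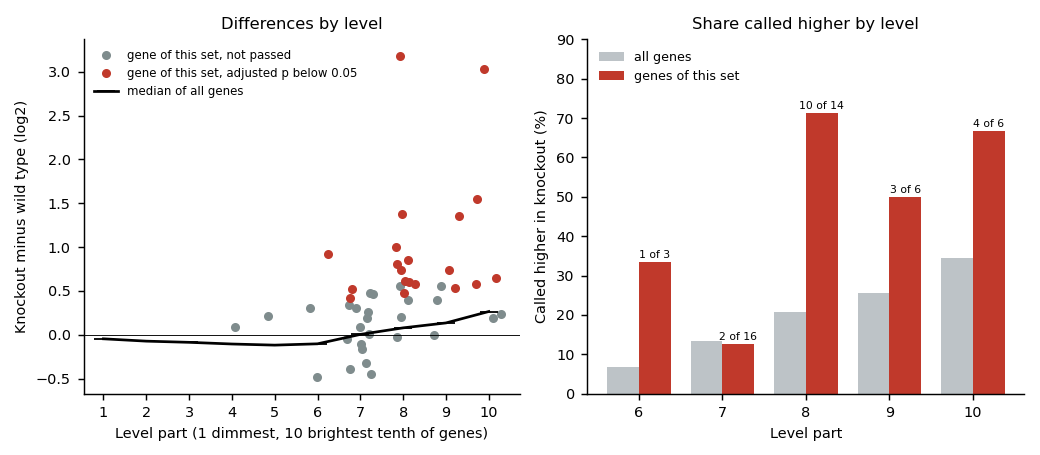
Left, the difference of each gene, knockout minus wild type in log2 units, against its part of 10 by mean level, with the median of all genes in that part; right, the percentage of genes called higher in each part for the 47 genes and for all genes. In part 8, 10 of 14 genes of the translation apparatus rose beside 20.7% of all genes, and in part 7, 2 of 16 beside 13.4%.

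The aminoacyl-tRNA synthetases load each tRNA with its amino acid, and those of mitochondria carry the suffix 2. Among the 16 on the arrays, 5 rose, 0 fell and 11 did not pass, with a median difference of 0.37. Iars2, the isoleucyl-tRNA synthetase, stood at 6.19, 5.68 and 5.59 on the wild type arrays and at 7.41, 7.36 and 7.34 on the knockout arrays. The knockout arrays lay close together and far above the highest wild type array. The difference of 1.55 (SE 0.17, 95% interval 1.17 to 1.93) is 2.93-fold, with an adjusted p of 0.000949 in limma. Yars2, the tyrosyl-tRNA synthetase, stood at 4.52, 4.25 and 3.77 in wild type and 5.30, 5.14 and 5.11 in knockout. Its groups did not overlap, and the difference was 1.00 (SE 0.19, adjusted p = 0.00857). Without knockout replicate 1, Iars2 kept an adjusted p of 0.00783 and Yars2 of 0.042.

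The other 3 synthetases that rose did so by less than 2-fold, and each lost its call in some fits that left out 1 array. Fars2, which charges phenylalanine tRNA, stood at 6.00, 5.75 and 5.64 in wild type and 6.37, 6.38 and 6.39 in knockout, a difference of 0.58 (SE 0.13, adjusted p = 0.0163). Sars2, which charges the serine tRNAs, stood at 3.26, 3.31 and 3.37 in wild type and 3.77, 4.03 and 3.70 in knockout, a difference of 0.52 (SE 0.13, adjusted p = 0.0256). Nars2, the asparaginyl-tRNA synthetase, stood at 3.30, 3.19 and 3.41 in wild type and 3.84, 3.66 and 3.65 in knockout, a difference of 0.42 (SE 0.12, adjusted p = 0.0490). Each of these had every knockout array above every wild type array. Fars2 lost its call without any 1 knockout array (adjusted p up to 0.0644), Sars2 without any 1 of replicates 1 and 2 of either genotype (up to 0.0985), and Nars2 without any 1 of the 6 arrays (up to 0.164). Without knockout replicate 1 the differences of Fars2, Sars2 and Nars2 were 0.59, 0.55 and 0.36. In that fit 6.62% of all genes rose, beside 10.4% with all arrays. Quantile normalization also ended the calls of Fars2 (0.0543) and Nars2 (0.0522). Nars2 lost its call as well with an eBayes trend, with array weights and with the replicate number as a block (0.0830 with the block).

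Of the synthetases that did not pass, 5 had no overlap between the groups, all with the knockout higher: Tars2 (difference 0.56, adjusted p = 0.0570), Wars2 (0.56, 0.0691), Lars2 (0.40, 0.0781), Ears2 (0.34, 0.168) and Pars2 (0.22, 0.263). Tars2, for threonine, stood at 5.05, 5.33 and 4.69 in wild type and 5.59, 5.68 and 5.49 in knockout, and passed without wild type replicate 2 (difference 0.72, adjusted p = 0.0186). Wars2, for tryptophan, stood at 4.01, 3.96 and 4.23 in wild type and 4.48, 5.01 and 4.38 in knockout, where replicate 2 was the highest array. Mars2 and Vars2, for methionine and valine, differed by 0.31 and 0.30 with overlapping groups. Aars2, Cars2 and Rars2, for alanine, cysteine and arginine, differed by -0.05, -0.01 and -0.02, with 95% intervals of -0.29 to 0.20, -0.30 to 0.29 and -0.39 to 0.35. Hars2, for histidine, stood at 3.43, 4.15 and 3.93 in wild type and 3.22, 3.60 and 3.53 in knockout, a difference of -0.39 (95% interval -0.84 to 0.06, adjusted p = 0.236) with overlapping groups. Without wild type replicate 1, Hars2 was called lower (-0.59, adjusted p = 0.0410).

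Mitochondria lack a glutaminyl-tRNA synthetase: Ears2 first puts glutamate on the glutamine tRNA, and an amidotransferase of the subunits encoded by Qrsl1, Gatb and Gatc then turns it into glutamine. Gatc stood at 5.82, 4.58 and 5.28 in wild type and at 8.62, 8.03 and 8.13 in knockout, so that the lowest knockout array was well above the highest wild type array. The difference of 3.03 (SE 0.30, 95% interval 2.35 to 3.71) is 8.18-fold, and it had an adjusted p of 0.000675 in limma. Gatb stood at 4.33, 4.57 and 4.30 in wild type and 5.22, 5.37 and 5.02 in knockout, a difference of 0.80 (SE 0.14, adjusted p = 0.00618). Qrsl1, the catalytic subunit, stood at 4.25, 4.66 and 3.94 against 4.23, 4.57 and 4.65. The groups of Qrsl1 overlapped, and the difference of 0.20 (95% interval -0.25 to 0.66, adjusted p = 0.562) did not pass. Without knockout replicate 1 the differences of Gatc and Gatb kept adjusted p-values of 0.00548 and 0.0305. Whether the 3 subunits differ from each other in their response was not tested.

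**Figure D3:**
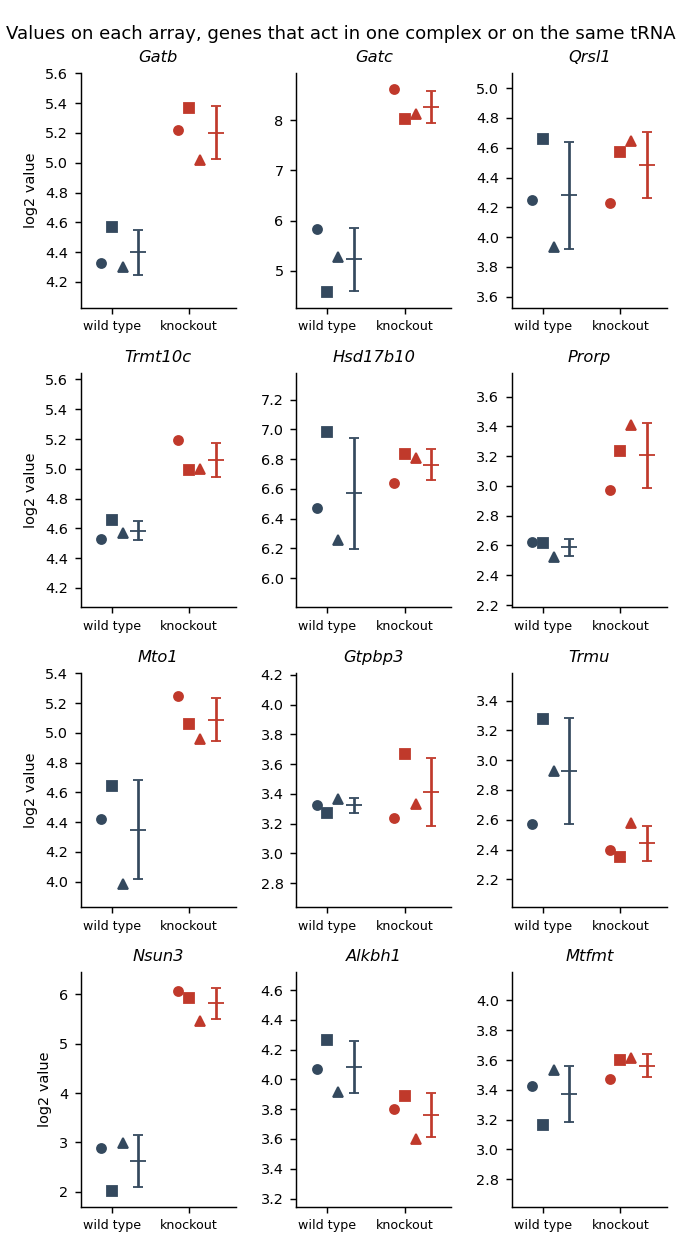
Values of genes that act in the same complex or on the same tRNA, in log2 units for each array, with circle, square and triangle for replicates 1, 2 and 3 and bars for the mean ± SD of 3 arrays in each genotype. Gatc and Nsun3 separate by 3.03 and 3.19 log2 units between the genotypes, while the arrays of their partners Qrsl1 and Mtfmt overlap. Their other partners do separate: Gatb is higher in the knockout by 0.80, and all knockout arrays of Alkbh1 lie below its wild type arrays.

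In tRNA processing and modification, 5 of 14 genes rose, 0 fell and 9 did not pass, with a median difference of 0.19. Nsun3 had the greatest difference of the 47 genes and the fourth greatest of all 23185. This methyltransferase modifies the wobble cytidine of the mitochondrial methionine tRNA, which lets that tRNA read more than 1 methionine codon. It stood at 2.88, 2.02 and 2.98 in wild type and at 6.06, 5.92 and 5.46 in knockout. All 3 knockout arrays lay more than 2 log2 units above the highest wild type array, and the 3 wild type values spread over almost 1 log2 unit. The difference was 3.19 (SE 0.27, 95% interval 2.58 to 3.79), a 9.10-fold change with an adjusted p of 0.000384 in limma, and without knockout replicate 1 it was 3.06 with an adjusted p of 0.00384.

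Other steps on the same tRNA did not pass. Alkbh1, the dioxygenase that oxidises the methyl group placed by Nsun3, stood at 4.07, 4.27 and 3.92 in wild type and 3.80, 3.89 and 3.60 in knockout. Its knockout arrays all lay below its wild type arrays, and the difference was -0.32 (95% interval -0.64 to -0.01, adjusted p = 0.161). Mtfmt, which formylates the charged methionine tRNA for initiation, stood at 3.43, 3.17 and 3.53 against 3.48, 3.60 and 3.61, a difference of 0.19 (adjusted p = 0.403) with overlapping groups. Mars2, which charges it, differed by 0.31 (adjusted p = 0.269).

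The promoter of Nsun3 is printed because no other gene of the set moved as far, and the sites below because their motif was the most frequent of 6 searched among the genes that rose. The window holds the 250 bases before the transcription start in RefSeq's mouse assembly GRCm38.p6 (chr16:62786717-62786966, minus strand), with capitals for CCGGAAG, the core recognised by ETS family factors.
Nsun3: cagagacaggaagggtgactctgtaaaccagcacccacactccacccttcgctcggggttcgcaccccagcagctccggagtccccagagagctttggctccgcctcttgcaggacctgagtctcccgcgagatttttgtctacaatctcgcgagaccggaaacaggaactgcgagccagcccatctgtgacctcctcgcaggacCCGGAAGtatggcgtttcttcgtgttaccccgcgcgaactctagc
The match in Nsun3 lies 45 bases before the start. Both strands were searched, and windows were found for 43 of the 47 genes, all but Hars2, Pars2, Gatb and Mtif3. A match to CCGGAAG stood in 5 of the 19 risen genes with a window, in 4 of the 24 that did not pass, and in 10.0% of the 17452 genes with a window and a row. The median share of G and C bases in the windows was 58.4%, 59.2% and 55.6% in that order. Its part in the match counts was not tested. The other 4 risen genes with a match are shown with 10 bases on either side, written 5′ to 3′ on the strand of the gene, where CTTCCGG marks a match on the other strand.
Trmt5, 113 bases before the start (chr12:73286808-73286834, minus strand): gggcttggccCTTCCGGgctctcgtag
Trmt5, 84 bases before the start (chr12:73286779-73286805, minus strand): aatcgcgggcCCGGAAGagaggtgcga
Mtif2, 11 bases before the start (chr11:29526376-29526402, plus strand): ggggaagctgCTTCCGGcggtaccgga
Sars2, 154 bases before the start (chr7:28741804-28741830, plus strand): cctccagcccCTTCCGGggttcctcct
Trmt10c, 12 bases before the start (chr16:56037782-56037808, minus strand): tggtgccggaCTTCCGGcggccgcggc
The other motifs searched were rarer. GCATGCGC, the core of the NRF1 site, stood in 0 of the 19 risen genes and in 3 of the 24 others, Wars2, Rars2 and Vars2, beside 3.40% of genes with a window and a row. TCAAGGTCA, a site of oestrogen-related receptors, stood in 1 risen gene, Mtrf1l, beside 0.338% of genes.
Mtrf1l, 208 bases before the start (chr10:5824133-5824161, minus strand): actcgctatcTCAAGGTCAcgcctaggca
AAGATGGCG (the core of the YY1 site), CACGTGA (an E-box) and TGATGNAA (the amino acid response element read by ATF4) stood in 0 of the 43 windows, beside 0.888%, 4.31% and 3.33% of genes. A match is a description of letters in a window and not of a bound site. No window of the 43 held matches to more than 1 of the 6 motifs.

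Trmt5, which methylates the guanosine beside the anticodon, was the other gene of tRNA modification that rose by at least 2-fold. It stood at 4.45, 4.08 and 3.76 in wild type and 5.56, 5.61 and 5.25 in knockout, with no overlap. The difference was 1.38 (SE 0.19, 95% interval 0.94 to 1.81), a 2.60-fold change with an adjusted p of 0.00242 in limma and of 0.0156 without knockout replicate 1. Cdk5rap1, which adds a methylthio group to the modified adenosine on the same side of the anticodon, stood at 3.90, 4.08 and 3.85 in wild type and 4.71, 4.53 and 4.43 in knockout, a difference of 0.61 (SE 0.13, adjusted p = 0.0138). Its groups did not overlap, but the call was lost without knockout replicate 1 or 2 (adjusted p up to 0.0596). Trit1, which places the isopentenyl group that Cdk5rap1 builds on, did not pass (-0.11, adjusted p = 0.634).

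Mto1 and Gtpbp3 together attach taurine to the wobble uridine of several mitochondrial tRNAs, and Trmu adds sulphur to the same base. Mto1 stood at 4.42, 4.64 and 3.99 in wild type and 5.25, 5.06 and 4.96 in knockout. Its groups did not overlap, and the difference of 0.74 (SE 0.18, adjusted p = 0.0245) was lost without any 1 knockout array (adjusted p up to 0.0955). Gtpbp3 stood at 3.33, 3.27 and 3.37 against 3.24, 3.67 and 3.33, overlapping values with a difference of 0.09 (95% interval -0.23 to 0.41). Trmu stood at 2.57, 3.28 and 2.93 in wild type and 2.40, 2.35 and 2.58 in knockout. The highest knockout array of Trmu just reached the lowest wild type array, and the difference of -0.49 (95% interval -0.90 to -0.07, adjusted p = 0.111), the most negative of the 47, passed only without wild type replicate 1 (-0.66, adjusted p = 0.0231).

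Mitochondrial RNase P cuts tRNAs free at their 5′ end and consists of the proteins of Trmt10c, which is also a methyltransferase, Hsd17b10, a dehydrogenase, and Prorp, the nuclease. Trmt10c stood at 4.53, 4.65 and 4.57 in wild type and 5.19, 4.99 and 5.00 in knockout, a difference of 0.48 (SE 0.12, adjusted p = 0.0259). The groups of Trmt10c were apart, but the call was kept only without wild type replicate 2 when single arrays were left out (adjusted p up to 0.101). Quantile normalization gave 0.0837, and the replicate number as a block gave 0.0578. Prorp, from the list of partner genes and named here as the remaining subunit, stood at 2.62, 2.62 and 2.52 in wild type and 2.98, 3.23 and 3.41 in knockout. Its difference was 0.62 (adjusted p = 0.0174), and the call was lost when knockout replicate 2, knockout replicate 3 or wild type replicate 3 was left out (up to 0.0700). Hsd17b10 stood at 6.47, 6.98 and 6.26 against 6.64, 6.83 and 6.81, overlapping values with a difference of 0.19 (95% interval -0.24 to 0.62), and under quantile normalization the estimate was -0.03. Elac2, which cuts the 3′ end, differed by 0.39 (adjusted p = 0.0940) with no overlap. Pus1, which makes pseudouridine, and Trmt61b, an adenosine methyltransferase, differed by -0.17 and 0.09, and neither passed.

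Enzymes that modify the ribosomal RNAs gave 2 risen genes of 5, both acting on the small subunit, with a median difference of 0.48. Tfb1m, which dimethylates neighbouring adenosines near the end of the small ribosomal RNA, stood at 3.88, 3.99 and 4.11 in wild type and 4.92, 4.83 and 4.79 in knockout. Both groups were tight and well apart, with a difference of 0.85 (SE 0.12, adjusted p = 0.0024 in limma, 0.0156 without knockout replicate 1). Nsun4, which methylates a cytidine there and helps to join the subunits, stood at 4.84, 5.10 and 4.76 in wild type and 5.72, 5.80 and 5.41 in knockout. Its groups did not overlap, and the difference was 0.74 (SE 0.15, adjusted p = 0.0120), a call lost without knockout replicate 1 or 2 (up to 0.0577). Mrm1, Mrm2 and Mrm3, the ribose methyltransferases of the large ribosomal RNA, differed by 0.27, 0.01 and 0.48 (adjusted p = 0.394, 0.982 and 0.101). Of these 3, Mrm3 alone had no overlap, with 3.55, 3.67 and 3.36 in wild type and 4.02, 4.31 and 3.69 in knockout.

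Translation factors had 6 risen genes of 9 and 0 that fell, with a median difference of 0.58. Mrrf, the recycling factor that splits the ribosome after termination, stood at 4.74, 4.83 and 4.33 in wild type and 6.03, 6.18 and 5.75 in knockout. The groups were widely apart, and the difference was 1.35 (SE 0.17, 95% interval 0.96 to 1.74, 2.55-fold, adjusted p = 0.00176, and 0.0124 without knockout replicate 1). Gfm2, the GTPase that works with Mrrf, stood at 5.79, 6.10 and 6.18 against 6.18, 6.36 and 6.23. The lowest knockout array of Gfm2 barely exceeded the highest wild type array, and its difference of 0.23 (adjusted p = 0.312) did not pass.

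Mtrf1 and Mtrf1l encode related release factors that end translation at stop codons. Mtrf1 stood at 2.51, 2.77 and 2.39 in wild type and 3.41, 3.59 and 3.42 in knockout, a difference of 0.92 (SE 0.14, adjusted p = 0.00323). Mtrf1l stood at 4.14, 4.28 and 4.18 in wild type and 4.69, 4.88 and 4.78 in knockout, a difference of 0.58 (SE 0.11, adjusted p = 0.0106). In both genes the groups were clearly apart. Their adjusted p-values without knockout replicate 1 were 0.0160 and 0.0307. Mtrf1 kept its call without any 1 array, and Mtrf1l lost it without knockout replicate 2 (0.0527).

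**Figure D4:**
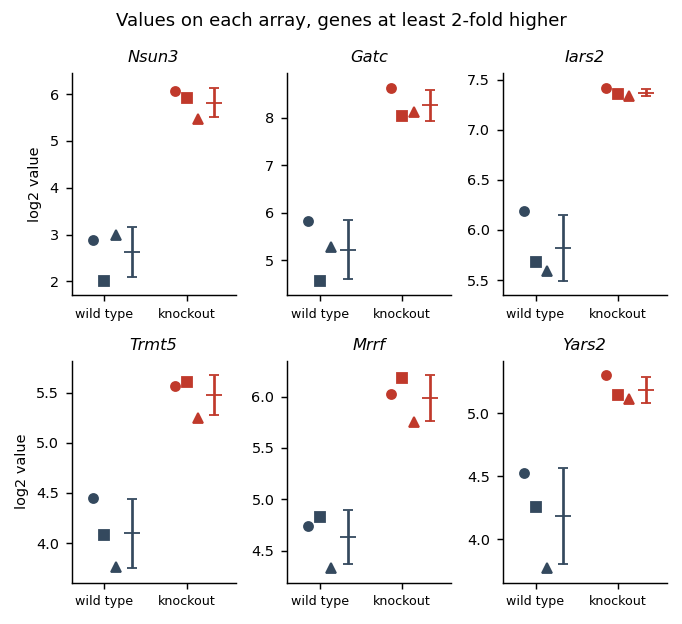
Values in log2 units on each array for the 6 genes that rose by at least 2-fold, with circle, square and triangle for replicates 1, 2 and 3 and bars for the mean ± SD of 3 arrays in each genotype. In every one of the 6 the lowest knockout array lies above the highest wild type array, and Nsun3 and Gatc have the widest gaps.

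For elongation, Gfm1, the GTPase that moves the ribosome along the message, stood at 6.83, 6.73 and 6.41 in wild type and 7.26, 7.37 and 7.30 in knockout. The groups of Gfm1 did not overlap, and the difference was 0.65 (SE 0.14, adjusted p = 0.0140), with 0.0467 without knockout replicate 1, 0.0633 without knockout replicate 2 and 0.0509 under quantile normalization. Tsfm, the exchange factor that reloads the elongation factor Tufm with GTP, stood at 4.57, 4.39 and 4.44 in wild type and 4.85, 5.21 and 5.16 in knockout. The difference of Tsfm was 0.61 (SE 0.13, adjusted p = 0.0169), lost without knockout replicate 2 or 3 (up to 0.0761) and kept without replicate 1 (0.0206). Tufm itself, which brings charged tRNAs to the ribosome, stood at 4.69, 4.04 and 3.77 in wild type and 3.67, 3.89 and 3.60 in knockout. Its difference of -0.45 (95% interval -0.96 to 0.06, adjusted p = 0.230) did not pass, and its knockout replicate 2 lay above wild type replicate 3. The difference between Tsfm and Tufm was not tested.

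For initiation, Mtif2, which places the first tRNA, stood at 4.94, 5.16 and 4.74 in wild type and 5.50, 5.42 and 5.54 in knockout, a difference of 0.54 (SE 0.14, adjusted p = 0.0298). The groups did not overlap, but among the fits that left out 1 array the call was kept only without wild type replicate 2 (adjusted p up to 0.100). Quantile normalization gave 0.0786, and the replicate number as a block gave 0.0554. Mtif3, which keeps the ribosomal subunits apart before initiation, stood at 3.29, 3.46 and 3.38 in wild type and 3.84, 4.07 and 3.63 in knockout. With no overlap and a difference of 0.47 it just missed the threshold (adjusted p = 0.0557), and it passed without knockout replicate 3 (0.58, adjusted p = 0.0471).

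Calls for 9 of the 20 risen genes were kept in all 6 fits that left out 1 array, and these were also the 9 with an adjusted p below 0.01: Iars2, Yars2, Gatb, Gatc, Nsun3, Trmt5, Tfb1m, Mtrf1 and Mrrf. Without knockout replicate 1, 12 of the 20 genes still passed, where 6.62% of all genes rose, and Cdk5rap1, Fars2, Mtif2, Mto1, Nars2, Nsun4, Sars2 and Trmt10c did not. By role, those 12 were 2 synthetases, 2 amidotransferase subunits, 2 enzymes of tRNA modification, 1 of ribosomal RNA modification and 5 translation factors. Without knockout replicate 2, the remaining calls were those 9 genes, where 6.05% of all genes rose.

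Other genes of mitochondrial gene expression were taken from lists. Of 45 partner genes, which serve ribosome assembly, RNA binding and further tRNA steps, 16 rose and 3 fell, with a median difference of 0.30. These are 35.6% and 6.67%, beside 10.4% and 6.18% of all genes, so the share that fell was near that of all genes. In level parts 7 and 8, where 13.4% and 20.7% of all genes rose, lie 12 and 10 of the 45 genes. Parts 9 and 10, where 25.5% and 34.5% of all genes rose, hold 14. Without knockout replicate 1, 13 of the calls as higher and 0 of those as lower were kept. The 4 with the smallest p were Fastkd2, an RNA-binding protein needed for the large ribosomal subunit (1.24, adjusted p = 0.000757), Mterf3, which acts in large subunit assembly (1.28, 0.00111), Ptcd3, a protein of the small subunit (0.96, 0.00174), and Eral1, the chaperone of the small ribosomal RNA (0.85, 0.00197). The 3 that fell were Mss51 (-1.08, adjusted p = 0.0171), Qtrt1, a subunit of the enzyme that inserts queuine into tRNA (-0.58, 0.0483), and Pusl1 (-0.50, 0.0333). Without knockout replicate 1, 2 or 3, none of those 3 passed (adjusted p from 0.0512 to 0.0584 without replicate 1), and Qtrt1 and Pusl1 also lost their calls without wild type replicate 2 or 3. Of 19 genes of mitochondrial DNA upkeep and transcription, 4 rose (21.1%, beside 10.4% of all genes) and 0 fell, with a median difference of 0.12. They were Pnpt1, an RNA-degrading enzyme (0.81, 0.00326), Tefm, the elongation factor of the mitochondrial RNA polymerase (0.70, 0.00657), Twnk, the replicative helicase (0.63, 0.00736), and Tfb2m, a transcription factor whose groups overlapped (1.61, 0.0407), with a call lost without wild type replicates 1 and 3 or knockout replicates 1 and 2 in turn (up to 0.150). The other 3 kept their calls without knockout replicate 1.

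Cytosolic synthetases serve the ribosomes outside the mitochondria. Of 20 genes of that list, 4 rose and 0 fell, with a median difference of 0.31, and all 4 calls were kept without knockout replicate 1. In the list 15 genes lie in level parts 9 and 10, where 25.5% and 34.5% of all genes rose. The 4 were Iars (0.90, adjusted p = 0.00145), Tars (0.76, 0.00461), Eef1e1, a scaffold of the synthetase complex (1.22, 0.00564), and Farsb (0.93, 0.00629). The isoleucine genes Iars2 and Iars both rose, as did Fars2 and Farsb, while Farsa, the other subunit of the cytosolic phenylalanine enzyme, did not pass (-0.02). Where a single gene for an amino acid passed, the counterpart's value is given beside it: Tars2 stood at 0.56 beside 0.76 for Tars, and Nars2 at 0.42 beside 0.35 for Nars. For serine and tyrosine, Sars2 and Yars2 differed by 0.52 and 1.00 and Sars and Yars by 0.03 and 0.48. No pair was tested for a difference.

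Faulty mitochondrial translation is known to switch on a stress programme led by Atf4 and its relatives. Of 22 genes of that programme, 1 rose and 2 fell, with a median difference of -0.08. These are 4.55% and 9.09% of the list, beside 10.4% and 6.18% of all genes. Shmt2, a mitochondrial enzyme of serine and folate metabolism, rose by 1.21 (adjusted p = 0.00338, and 0.0148 without knockout replicate 1). Atf4 fell by 0.73 (adjusted p = 0.00757, and 0.0372 without knockout replicate 1). Nupr1, a stress-induced nuclear protein, fell by 1.72 (0.0447), a call lost without any 1 array other than wild type replicate 2 (up to 0.144).

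Neighbouring genes on the chromosome were set beside the 6 genes that rose by at least 2-fold. Of 36 neighbours, the nearest 3 with a row on either side of each, 6 rose and 3 fell, or 16.7% and 8.33%, beside 10.4% and 6.18% of all genes. Of these calls, 4 and 3 were kept without knockout replicate 1. Beside Gatc, Coq5, a methyltransferase of coenzyme Q synthesis that lies 3 places away, stood at 7.31, 7.34 and 6.87 in wild type and 10.44, 10.16 and 9.96 in knockout. Its difference of 3.01 (adjusted p = 0.000136, and 0.00204 without knockout replicate 1) was close in size to the 3.03 of Gatc, and both genes had all knockout arrays far above wild type. Between and around them the direction varied: Srsf9, a splicing factor whose annotated span overlaps that of Gatc, fell by 1.22 (adjusted p = 0.00273), and Triap1, Dynll1, Cox6a1 and Msi1 did not pass (0.40, -0.66, -0.06 and -0.10). Whether the probes told strands apart at such overlaps is not given in the sources used here, so values of Gatc and Srsf9 are uncertain to that extent. The same holds for Iars2, whose span overlaps Rab3gap2, Mir194-1 and Mir215, for Trmt5 with Mnat1 and Slc38a6, and for Mrrf with Rbm18, and none of those 6 neighbours passed.

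Beside the other 5 genes no neighbour moved as far. Next to Nsun3, Crybg3 rose by 0.84 (adjusted p = 0.0032). Around Yars2, Pkp2, a plakophilin of the intercalated disc, rose by 1.13 (0.00431), Dnm1l, the GTPase of mitochondrial fission, by 0.69 (0.00585), and the predicted gene Gm5481 fell by 1.17 (0.00499). Beside Trmt5, Six4 rose by 0.67 (0.0152) and D830013O20Rik by 0.49 (0.0315), and both calls were lost without knockout replicate 1 (0.0648 and 0.0878) or 2, that of D830013O20Rik also without any other array but wild type replicate 3. Beside Iars2, Snora36b, a small nucleolar RNA gene, fell by 1.66 (0.000793). None of the 6 neighbours of Mrrf passed.

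**Figure D5:**
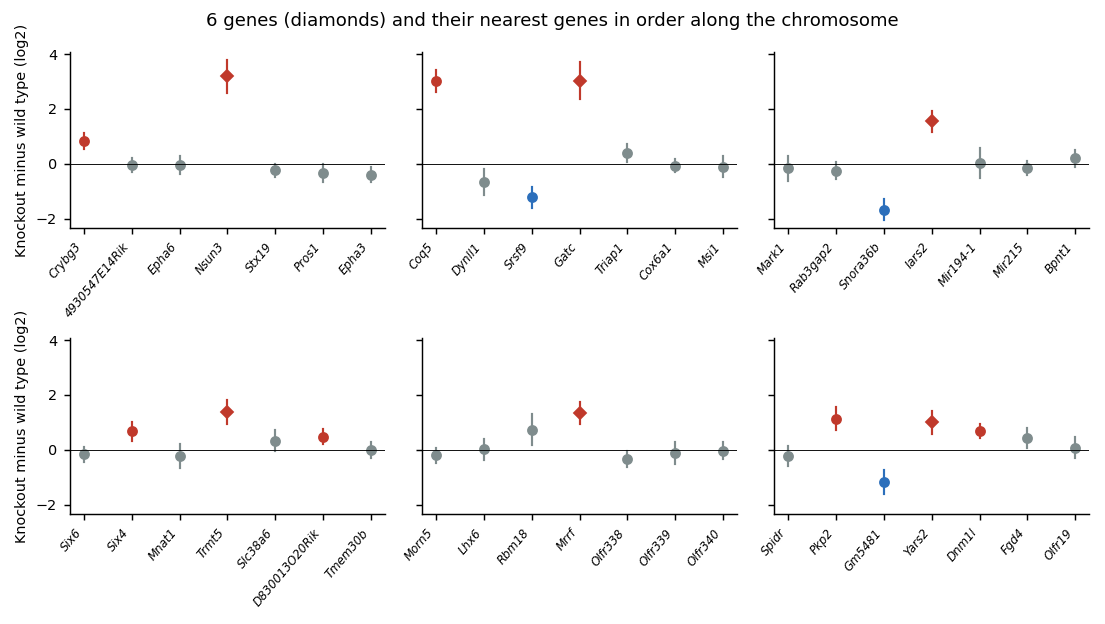
Difference, knockout minus wild type in log2 units with 95% interval, for the 6 genes that rose by at least 2-fold (diamonds) and the 3 genes with a row on either side in chromosomal order, in red for higher, blue for lower and grey for not passed. Coq5, at 3.01 beside Gatc at 3.03, is the one neighbour of the 36 with a difference above 2, and 27 of the 36 neighbours did not pass.

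Several of the 47 genes share a promoter region with a gene that runs the opposite way. Promoter windows overlapped those of an opposite gene with a row for 12 of them, and 5 of the 12 were genes that rose. Across those 5 pairs, 1 partner rose and 0 fell: Lyrm4, an assembly factor for iron-sulphur clusters that pairs with Fars2, rose by 0.79 (adjusted p = 0.00319). Triap1 beside Gatc (0.40), Mrps12 beside Sars2 (-0.38), Slc38a6 beside Trmt5 (0.34) and 1700102H20Rik beside Tfb1m (-0.04) did not pass. Among the 7 pairs whose member of the set did not pass, 4 partners rose: Glod4 beside Mrm3 (0.98), Rtn4ip1 beside Qrsl1 (0.88), Orc3 beside Rars2 (0.69) and Slirp beside Alkbh1 (0.69). Of all genes, 10.4% rose and 6.18% fell, and the difference between 1 of 5 and 4 of 7 was not tested. The calls of Orc3 and Slirp were lost without knockout replicate 1 (adjusted p = 0.0773 and 0.141) or 2, that of Orc3 also without knockout replicate 3, and that of Slirp also without 1 of wild type replicates 2 and 3. These partners were chosen after their values were seen.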

How the data were processed

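Per the labels' protocols, TRIzol was used to extract total RNA and a WT Plus kit to label it with biotin for the 6 arrays. The deposited values are log2 expression, 1 per probe set and array, made with RMA in affy 1.61.0 under R 3.6.0, per the submitters' processing notes. The log2 scale was inferred from the range of the values, no detection calls were used, and the probe set definition is not given in the sources used here. A low value is therefore not told apart from background, and levels of different genes were set side by side only to divide all genes into 10 parts by mean value. The table held 25206 rows, of which 23185 had 1 gene symbol, 0 several and 2021 none. Only named rows were tested.

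Each gene was tested with limma 3.58.1 in R 4.3.3 (lmFit and eBayes, genotype as the only term, two-sided, Benjamini-Hochberg adjustment over the 23185 genes, threshold 0.05). Adjusted p-values in the text come from this test, and no filter on dim genes was used. With 3 arrays a group, precision is limited by their number. The code was tested on simulated data with known changes. Every one of the 47 genes is named, other lists by at most 4 passing genes in each direction by p, and neighbours as the 3 nearest genes with a row on each side. The genes, lists, tests and motifs were chosen with earlier results of these data known. Promoter windows and gene order came from RefSeq tables of GRCm38.p6. The mitochondrially encoded genes were not analysed here. The alternatives tried were other scalings (quantile, median centring), filters on dim genes, other eBayes settings, array weights, a replicate block, fewer arrays, a stricter threshold and all rows.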

Additional observations from a re-analysis of the deposited data

How the results depend on the processing

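The number of genes that rose was 20 of 47 and ranged from 9 to 19 when 1 array was left out, with 9 without knockout replicate 2 and 12 without knockout replicate 1. It was 12 without both arrays numbered 1 (an alternative chosen after seeing the data), 9 at an adjusted p threshold of 0.01, 15 under quantile normalization and 25 with each array centred on its median. Array medians were 2.23 to 2.28 in wild type and 2.13 to 2.16 in knockout, so centring added 0.11 to every difference. It raised the median of the 47 genes from 0.42 to 0.53. With centring 13.6% of all genes rose and 4.21% fell, beside 10.4% and 6.18% without it. Filters on dim genes gave 21 and, for the 45 genes left by the stricter filter, 23, and a trend, robust estimation, array weights and all rows gave 19 or 20. The median difference over leave-one-out fits ran from 0.33 to 0.49. The number of genes that fell was 0 to 2 when 1 array was left out, the 2 being Hars2 and Trmu without wild type replicate 1. All 9 genes named as kept in every leave-one-out fit also passed under quantile normalization, centring, the block and without both arrays numbered 1. Whether arrays of the same replicate number belong together is not given in the labels. Same-numbered arrays had deviations from the group means that correlated at 0.09, 0.05 and 0.07, and arrays of unlike number at -0.12 to 0.05. Not every array correlated best with its own number. Deviations from a mean of 3 arrays depend on each other, so these values cannot decide whether same-numbered arrays shared a batch. With the replicate number as a block, 18 genes rose, 17 of them among the 20. Partner genes that fell numbered 0 to 4 without 1 array. Of the single genes, 8 changed sign somewhere, none of them called: under quantile normalization Hsd17b10 (-0.027) and Mrm2 (-0.0093), with centring Aars2 (0.063), Cars2 (0.11), Rars2 (0.091) and Trit1 (0.0036). Leaving out 1 array gave ranges across 0 for Cars2 (-0.083 to 0.10), Rars2 (-0.13 to 0.14), Pus1 (-0.41 to 0.12), Mrm2 (-0.025 to 0.034) and Gtpbp3 (-0.038 to 0.18). The difference of Fndc5 was -2.01 and no longer passed with robust estimation (adjusted p = 0.0635) or at a threshold of 0.01. When 1 array was left out it ran from -2.75 to -1.63 and passed only without knockout replicate 1. Apart from the constant that centring adds, the causes of these changes were not tested, and 3 arrays a group limit what small differences can be detected.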

Other observations

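On chromosome 16 lie 3 of the 47 genes, Nsun3, Trmt10c and Yars2, and all 3 rose. So did the 2 genes on chromosome 2 and the 1 gene on chromosome 14, where 10.4% of all genes on the arrays, over all chromosomes, rose. Those chromosomes were singled out after their values were seen, and the 20 risen genes are spread over 14 of the 18 chromosomes that hold a gene of the set.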
